A study of Mus musculus with 31 samples.

Results

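The genes described here are 10 core components and direct outputs of the circadian clock, chosen by name: Arntl, Clock, Per1, Per2, Cry1, Nr1d1, Nr1d2, Dbp, Bhlhe40 and Bhlhe41. A gene's value was taken from the probe set that the platform's annotation assigns to its symbol alone. 9 of the 10 genes had such a probe set, out of 22180 genes measured. The probe set that carries Per2 also carries a second symbol, so Per2 is given no value. Liver RNA came from 31 male C57BL/6 mice aged 3 to 4 months, with 1 Affymetrix whole-transcript array per animal and 100 ng of RNA each. The mice had been through 2 earlier fasts of 16 h within 8 weeks or through 0, and were then sampled after a final 16 h fast or in the fed state. The groups were fasted livers after 2 earlier fasts (7 arrays), fed livers after 2 earlier fasts (8 arrays), fasted livers after 0 earlier fasts (8 arrays) and fed livers after 0 earlier fasts (8 arrays). All livers were taken in the morning, and the labels give neither the hour of the day nor a processing batch. Each array is therefore a single time of day in a single animal, and no rhythm was measured. Whether livers or groups differed in hour within the morning is not known, and its part in the results below was not tested.

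In the clock of mammalian cells, the transcription factors ARNTL (BMAL1) and CLOCK bind DNA as a pair and switch on the Per and Cry genes, whose proteins return to the nucleus and block the pair. A second loop runs through the nuclear receptors REV-ERB alpha and beta, encoded by Nr1d1 and Nr1d2, which are switched on by the same pair and repress Arntl. In liver, the loop drives output factors such as DBP, and the timing of food intake is known as a strong cue for its phase.

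Values are log2 signals, on which a difference of 1 is a doubling, and levels are not compared between genes because each probe set binds its target differently. As a check of the tissue, the mean log2 signal of 9 hepatocyte markers lay between 11.5 and 11.6 in every group. The means of other marker lists over all groups ran from 6.68 to 7.33 for 6 sinusoidal endothelial, from 5.48 to 6.26 for 6 stellate and fibroblast, from 4.73 to 6.37 for 7 Kupffer cell, from 2.55 to 3.24 for 4 cholangiocyte and from 1.59 to 2.33 for 4 lymphocyte markers. Since each list has its own probe sets, these means give no proportions of cells. Whole arrays had medians of 2.01 to 2.07. Precision is limited by how many arrays each group holds.

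RefSeq start regions, 250 bases before to 50 bases after an annotated start, were matched for 8 of the 10 genes on build GRCm38.p6. Those of Per1 are shown because it was the only member called in the response to the final fast under both histories. Those of Cry1 and the downstream start of Arntl are shown because they hold the most matches and the only match to the REV-ERB and ROR letters searched. They were picked after the motif search. Only the exact letters given next were searched, so other forms of an element would not be marked. Capitals mark matches to CACGTG (the E-box bound by ARNTL and CLOCK), CACGTT (a variant E-box), TAGGTCA or TGGGTCA (the element shared by the REV-ERB receptors and the ROR activators) and GTAAACA (the FoxO element), searched on both strands. The regions are Per1 at chr11:69098699-69098998 and chr11:69099902-69100201 on the plus strand, Arntl at chr7:113207261-113207560 on the plus strand and Cry1 at chr10:85185005-85185304 on the minus strand.
Per1 upstream start: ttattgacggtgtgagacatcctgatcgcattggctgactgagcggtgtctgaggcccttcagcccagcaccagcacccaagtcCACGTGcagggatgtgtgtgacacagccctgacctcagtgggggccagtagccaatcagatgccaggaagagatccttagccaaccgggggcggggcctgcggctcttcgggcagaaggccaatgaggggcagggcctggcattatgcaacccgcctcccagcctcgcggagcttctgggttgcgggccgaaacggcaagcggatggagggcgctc
Per1 downstream start: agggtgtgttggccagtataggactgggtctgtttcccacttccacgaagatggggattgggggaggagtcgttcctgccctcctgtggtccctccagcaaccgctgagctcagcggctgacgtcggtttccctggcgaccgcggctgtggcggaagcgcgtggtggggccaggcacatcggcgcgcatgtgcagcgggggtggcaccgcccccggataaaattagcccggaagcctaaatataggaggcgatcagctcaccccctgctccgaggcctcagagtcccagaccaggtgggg
Arntl downstream start: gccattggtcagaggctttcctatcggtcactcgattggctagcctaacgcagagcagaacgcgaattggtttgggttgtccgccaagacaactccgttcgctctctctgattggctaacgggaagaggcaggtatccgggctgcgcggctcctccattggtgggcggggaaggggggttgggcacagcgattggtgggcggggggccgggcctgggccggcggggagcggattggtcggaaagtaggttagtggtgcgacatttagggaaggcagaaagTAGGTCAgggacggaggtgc
Cry1: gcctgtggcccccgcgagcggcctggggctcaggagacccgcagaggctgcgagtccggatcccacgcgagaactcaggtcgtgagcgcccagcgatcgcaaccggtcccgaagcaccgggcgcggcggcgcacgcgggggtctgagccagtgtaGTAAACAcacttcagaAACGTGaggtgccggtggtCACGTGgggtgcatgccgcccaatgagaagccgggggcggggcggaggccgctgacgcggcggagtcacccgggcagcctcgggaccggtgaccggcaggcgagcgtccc
The E-box of Per1 began 166 bases before the upstream start, and the region of the downstream start held no match. In Cry1, an E-box lay 60 bases, a variant E-box 79 bases and a FoxO element 95 bases before the start. The matched REV-ERB and ROR element of Arntl lay 31 bases after its downstream start. Of the members not shown, Bhlhe41 held an E-box 153 bases before its start and Nr1d1 a variant E-box 28 bases before its start. The regions of Clock, Dbp and Nr1d2 held no match, and no member held the D-box letters TTATGTAA or TTACGTAA bound by DBP, or TGACGTCA, the cyclic AMP response element. Among 32851 mouse start regions of the same length, 7.15% held the E-box, 4.68% the variant, 6.45% the REV-ERB and ROR element, 3.65% the FoxO element, 1.06% the D-box and 1.79% the cyclic AMP response element.

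The response to the final fast compares livers after 16 h without food with fed livers of the same history. Per1 rose under both histories, by 1.68 on the log2 scale (3.22-fold) after 2 earlier fasts and by 2.01 (4.04-fold) after 0. After 2 earlier fasts, Clock also rose, and Nr1d1, Nr1d2, Bhlhe40 and Bhlhe41 fell. By limma, with p-values adjusted over all genes and a threshold of 0.05, 6 of the 9 measured members were called after 2 earlier fasts, 2 higher and 4 lower, against 11.6% of all genes (6.06% higher and 5.52% lower). After 0 earlier fasts 1 of 9 was called, against 12.5% of all genes (6.25% higher and 6.23% lower). The median change of the members was -0.43 after 2 earlier fasts and -0.23 after 0. The members' share of calls after 0 earlier fasts was thus near that of all genes. The 6 against 1 does not by itself show a difference between the histories. The interaction called 0 of 9 members, and 5 of the 9 had an unadjusted p under 0.05 after 0 earlier fasts against 8 after 2. Of all 22180 genes, 4844 had such a p after 0 earlier fasts and 4802 after 2.

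**Figure D1:**
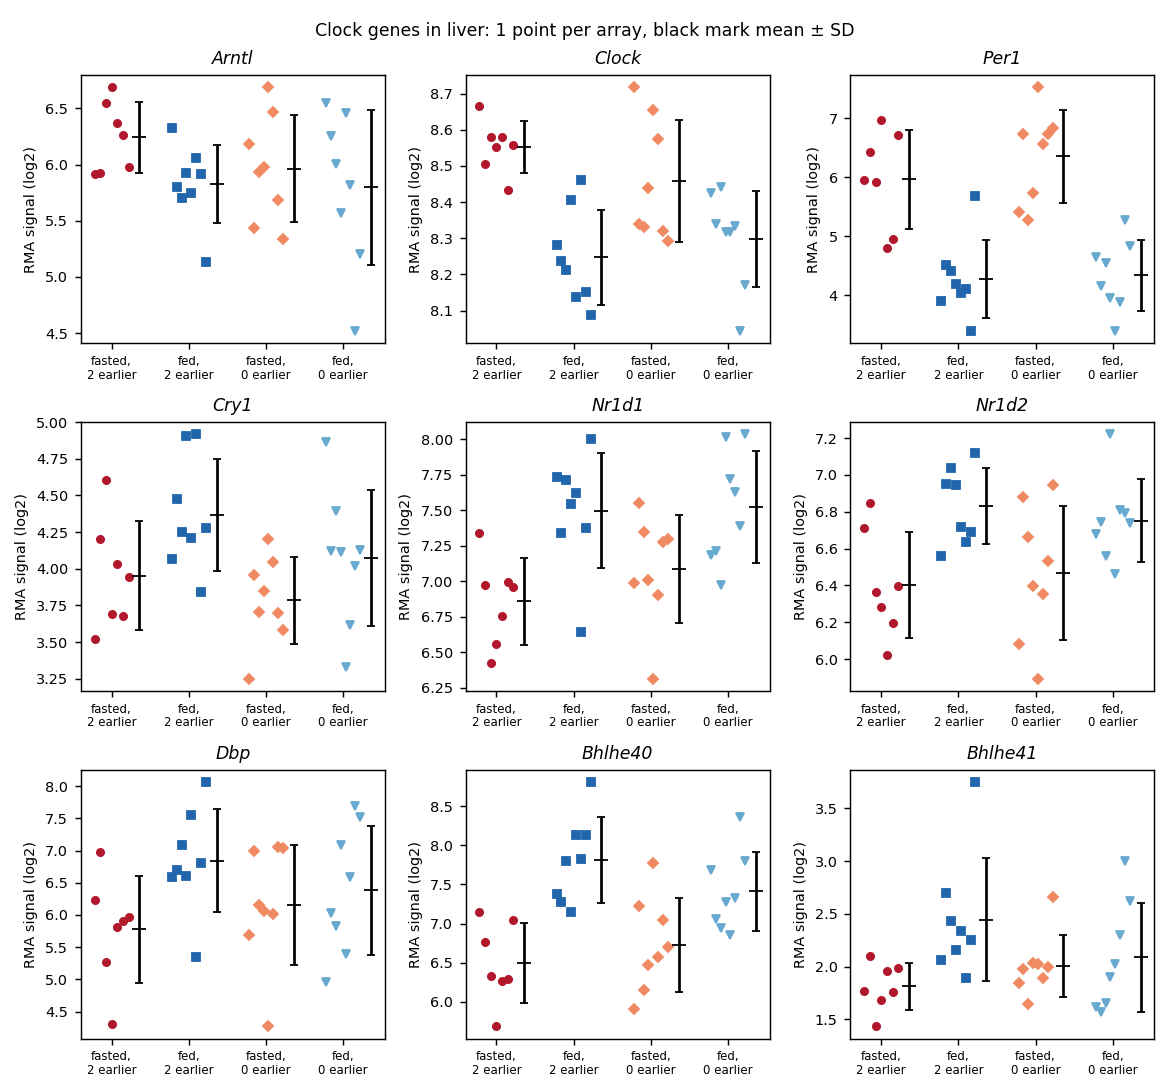
Log2 signal of the 9 measured members, 1 point per liver, with the group mean and SD as a bar, in fasted and fed livers after 2 earlier fasts (7 and 8 arrays) and in fasted and fed livers after 0 earlier fasts (8 and 8 arrays). Each panel has its own vertical scale. Per1 is higher in fasted livers and Bhlhe40 lower, while the points of Dbp spread over 2.67 to 2.78 log2 units in each group.

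Per1 encodes a repressor of the clock that is also known as a direct target of the glucocorticoid receptor and of CREB. Its probe set is 17251527, and the gene lies on chromosome 11. Its lowest, median and highest log2 signals after 2 earlier fasts were 4.80, 5.95 and 6.96 in fasted livers, against 3.39, 4.14 and 5.68 in fed livers. With 0 earlier fasts they were 5.28, 6.65 and 7.53 in fasted livers, against 3.39, 4.35 and 5.27 in fed livers. The groups did not overlap after 0 earlier fasts, though their edges nearly met, and overlapped at their edges after 2. The change was 1.68 (SE 0.34, adjusted p = 0.000594) after 2 earlier fasts and 2.01 (SE 0.33, adjusted p = 2.62e-05) after 0 (limma, Benjamini-Hochberg).

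Cry1, on chromosome 10, encodes a potent repressor of the ARNTL and CLOCK pair in mice. After 2 earlier fasts its lowest, median and highest signals were 3.52, 3.94 and 4.61 in fasted livers, against 3.84, 4.27 and 4.92 in fed livers. They were 3.25, 3.78 and 4.20 in fasted livers after 0 earlier fasts, against 3.33, 4.12 and 4.87 in fed livers. The groups overlapped under both histories, and neither difference passed the test, at -0.42 (adjusted p = 0.170) after 2 earlier fasts and -0.29 (adjusted p = 0.388) after 0.

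Among the activators, Clock had a small and even shift. Its lowest, median and highest signals after 2 earlier fasts were 8.43, 8.56 and 8.67 in fasted livers, against 8.09, 8.23 and 8.46 in fed livers. In mice with 0 earlier fasts they were 8.29, 8.39 and 8.72 in fasted livers, against 8.04, 8.33 and 8.44 in fed livers. Only the edges overlapped after 2 earlier fasts, where the rise was 0.31 (SE 0.07, adjusted p = 0.00375), a factor of 1.24. The difference of 0.16 after 0 earlier fasts did not pass (adjusted p = 0.170).

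Arntl, the partner of Clock, had 5.91, 6.27 and 6.69 as its lowest, median and highest signals in fasted livers after 2 earlier fasts, against 5.13, 5.86 and 6.33 in fed livers. After 0 earlier fasts these were 5.34, 5.95 and 6.69 in fasted livers, against 4.52, 5.91 and 6.55 in fed livers. The groups overlapped widely, and neither difference passed, at 0.42 (95% interval -0.05 to 0.89, adjusted p = 0.311) after 2 earlier fasts and 0.17 (adjusted p = 0.762) after 0.

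The REV-ERB genes were lower in fasted livers, and in such bulk samples fewer cells of a type and less RNA per cell cannot be told apart. Nr1d1 had lowest, median and highest signals of 6.43, 6.96 and 7.34 in fasted livers after 2 earlier fasts, against 6.64, 7.59 and 8.00 in fed livers. Under 0 earlier fasts they were 6.31, 7.14 and 7.55 in fasted livers, against 6.98, 7.51 and 8.04 in fed livers. Nr1d1 fell by 0.64 (SE 0.18, adjusted p = 0.0153) after 2 earlier fasts, a factor of 1.56, with groups that overlapped. Its change of -0.44 after 0 earlier fasts did not pass (adjusted p = 0.112).

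Nr1d2 had lowest, median and highest signals of 6.02, 6.36 and 6.84 in fasted livers after 2 earlier fasts, against 6.56, 6.83 and 7.12 in fed livers. With 0 earlier fasts they were 5.89, 6.46 and 6.94 in fasted livers, against 6.46, 6.74 and 7.22 in fed livers. The fall after 2 earlier fasts was 0.43 (SE 0.14, adjusted p = 0.0349), and the groups overlapped. This call was lost on leaving out any of 9 arrays, all among the 7 fasted and 8 fed livers compared. Changes ran from -0.50 to -0.37 over all the alternatives run. The change of -0.28 after 0 earlier fasts did not pass (adjusted p = 0.196).

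Bhlhe40 (DEC1), on chromosome 6, encodes a repressor that binds E-boxes and is known to respond to feeding, hypoxia and cell signals as well as to the clock. Its lowest, median and highest signals after 2 earlier fasts were 5.69, 6.32 and 7.14 in fasted livers, against 7.15, 7.81 and 8.81 in fed livers. They were 5.91, 6.63 and 7.78 in fasted livers after 0 earlier fasts, against 6.86, 7.30 and 8.36 in fed livers. After 2 earlier fasts all 7 fasted livers lay below all 8 fed livers, and the fall was 1.31 (SE 0.26, adjusted p = 0.00042), a factor of 2.49. After 0 earlier fasts the groups overlapped and the change, -0.68, did not pass (adjusted p = 0.0764). Without replicate 5 of that fasted group, the liver with the highest Bhlhe40 signal, the change after 0 earlier fasts was -0.83 and passed (adjusted p = 0.0205). Bhlhe40 passed there under 3 of the 38 alternatives run, with a limma adjusted p of 0.0205 to 0.183 over all of them.

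Bhlhe41 (DEC2), its paralog on the same chromosome, was dim, with signals near the array medians. Its lowest, median and highest signals after 2 earlier fasts were 1.43, 1.77 and 2.10 in fasted livers, against 1.89, 2.29 and 3.75 in fed livers. In mice with 0 earlier fasts they were 1.65, 1.99 and 2.66 in fasted livers, against 1.57, 1.97 and 3.00 in fed livers. It fell by 0.63 after 2 earlier fasts (SE 0.21, adjusted p = 0.0439), with overlapping groups, and differed by -0.08 after 0 (adjusted p = 0.894). The call after 2 earlier fasts was lost on leaving out any of 10 arrays, all among the 7 fasted and 8 fed livers compared. Without replicate 8 of that fed group, whose signal of 3.75 was its highest, the change was -0.45.

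Dbp encodes a PAR bZIP factor that binds D-boxes and is known for one of the strongest daily rhythms of any liver transcript. Its lowest, median and highest signals after 2 earlier fasts were 4.30, 5.91 and 6.97 in fasted livers, against 5.35, 6.75 and 8.07 in fed livers. Under 0 earlier fasts they were 4.27, 6.10 and 7.05 in fasted livers, against 4.95, 6.31 and 7.70 in fed livers. The groups overlapped under both histories. The change was -1.06 (95% interval -1.92 to -0.20) after 2 earlier fasts, a larger size than that of Nr1d1 but with an adjusted p of 0.112. It was -0.23 (adjusted p = 0.836) after 0. Without replicate 6 of the fed group after 2 earlier fasts, the change after 2 earlier fasts was -1.27 and passed (adjusted p = 0.0432). Dbp passed there under only 1 of the 38 alternatives run. Over all of them its change ran from -1.27 to -0.81 and the limma adjusted p from 0.0432 to 0.272.

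**Figure D2:**
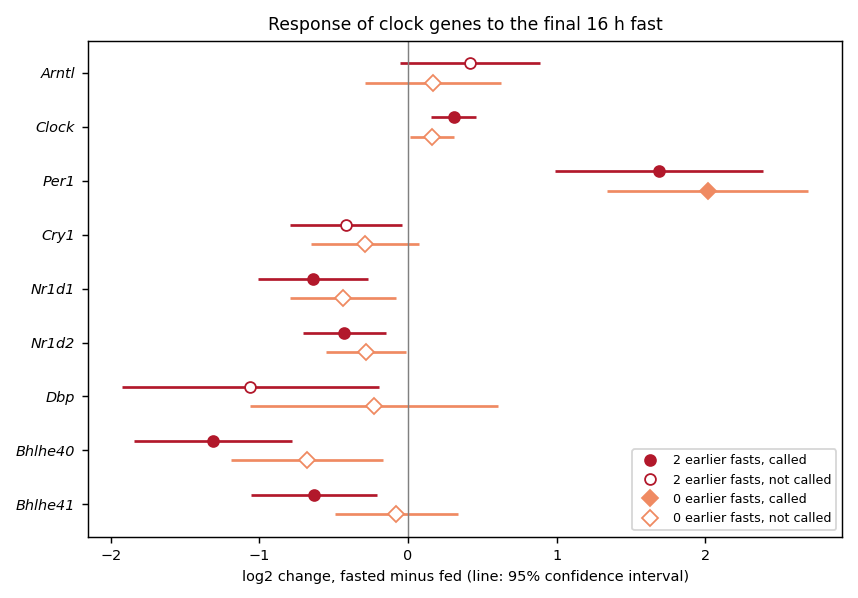
Log2 change, fasted minus fed, with its 95% interval from limma for the 9 measured members, after 2 earlier fasts and after 0 earlier fasts. Filled points passed the threshold of 0.05 after adjustment over all genes and open points did not. Per1 lies at 1.68 and 2.01, Bhlhe40 at -1.31 and -0.68, and the intervals of every gene overlap between the histories.

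Averaged over both histories, a comparison added after the separate responses had been seen, 5 of 9 members were called, against 19.1% of all genes (9.79% higher and 9.36% lower). Per1 rose by 1.85 (SE 0.24, adjusted p = 2.09e-07) and Clock by 0.23 (adjusted p = 0.000817). Bhlhe40 fell by 1.00 (adjusted p = 6.2e-05), Nr1d1 by 0.54 (adjusted p = 0.00155) and Nr1d2 by 0.36 (adjusted p = 0.00558). The others did not pass, with changes of -0.35 for Cry1 (adjusted p = 0.0522), -0.36 for Bhlhe41 (adjusted p = 0.0901), -0.64 for Dbp (adjusted p = 0.141) and 0.29 for Arntl (adjusted p = 0.248).

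The comparisons by history ask whether 2 earlier fasts left a difference in the clock genes. No member was called between livers after 2 and after 0 earlier fasts, in the fed state, in the fasted state or in the interaction of history and final fast. limma called 0 of 9 in each, with 0 of 9 at an unadjusted p under 0.05 in each, and it called 0% of all genes in each. Over all genes, 1245 had an unadjusted p under 0.05 in fed livers, 996 in fasted livers and 1023 in the interaction. The widest differences, 2 earlier fasts minus 0, were 0.46 for Dbp in fed livers (95% interval -0.38 to 1.29) and -0.39 for Per1 in fasted livers (95% interval -1.09 to 0.31). In the interaction they were -0.83 for Dbp (95% interval -2.03 to 0.37), -0.63 for Bhlhe40 (95% interval -1.37 to 0.10) and -0.55 for Bhlhe41 (95% interval -1.15 to 0.04). These intervals include differences as large as several of the called responses to the final fast, so they do not show that the histories acted alike.

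Among other genes of the clock, 1 passed the test in a response to the final fast. Of 14 measured further clock factors, 0 rose and 1 fell after 2 earlier fasts, and 0 rose and 0 fell after 0, with median changes of 0.10 under each history against -0.0004 and -0.004 for all genes. The shares of all genes called were 11.6% after 2 earlier fasts and 12.5% after 0. The gene that fell was Cry2, the paralog of Cry1, by 0.50 (adjusted p = 0.0223). Per3, the third Period gene, changed by -0.63 (adjusted p = 0.201) after 2 earlier fasts and by -0.39 (adjusted p = 0.494) after 0, without passing.

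Known rhythmic outputs of the liver moved in both directions. Of 17 measured, 5 rose and 2 fell after 2 earlier fasts (median 0.21), and 4 rose and 1 fell after 0 (median 0.13). Of all genes, 6.06% rose and 5.52% fell after 2 earlier fasts, and 6.25% rose and 6.23% fell after 0. Alas1, the first enzyme of heme synthesis, rose by 1.26 after 2 earlier fasts and by 0.84 after 0. Nr1i3, the xenobiotic receptor CAR, rose by 1.15 and by 1.39 in the same order, and Insig2, a brake on sterol synthesis, by 1.02 under each history. Gys2, liver glycogen synthase, rose by 0.45 after 2 earlier fasts and by 0.68 after 0. Elovl3, a fatty acid elongase, fell by 0.49 after 2 earlier fasts and by 0.76 after 0, while Upp2, a uridine phosphorylase, fell by 1.05 after 2 earlier fasts and changed by -0.70 after 0 without passing (adjusted p = 0.0566). Lonrf3 rose by 0.49 after 2 earlier fasts (adjusted p = 0.0457), and its change after 0 was -0.10 (adjusted p = 0.806). It was dim, with means of 3.13 in fasted and 2.64 in fed livers after 2 earlier fasts, and its call was close to the threshold.

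Per1 is also a target of hormones of fasting, and 2 further lists give the levels of other such targets beside it. The lists were chosen with earlier results of these data known, so their counts and medians are a description only. The part of these hormones in the rise of Per1 was not tested. Of 12 glucocorticoid-responsive genes, 7 rose and 0 fell after 2 earlier fasts (median 1.04), and 11 rose and 0 fell after 0 (median 1.21), against 6.06% of all genes higher after 2 earlier fasts and 6.25% after 0. The metallothioneins Mt2 and Mt1, which also respond to metals and stress, rose by 4.34 and 3.44 after 2 earlier fasts and by 4.63 and 3.85 after 0. Fkbp5, a chaperone partner of the glucocorticoid receptor, rose by 1.42 after 2 earlier fasts and by 1.56 after 0, and Zbtb16, a transcription factor, by 1.52 and by 1.56. Of 10 CREB and glucagon-responsive genes, 2 rose and 0 fell after 2 earlier fasts (median 0.29), and 2 rose and 1 fell after 0 (median 0.24), where 11.6% of all genes were called after 2 earlier fasts and 12.5% after 0. Pck1, a key enzyme of gluconeogenesis, rose by 1.07 after 2 earlier fasts and by 1.26 after 0. G6pc, which releases free glucose, rose by 0.46 after 2 earlier fasts, and Ppargc1a, a coactivator of fasting genes, by 0.89 after 0, where Crem, a regulator of cyclic AMP targets, fell by 0.30. No gene of these 4 lists was called in a comparison by history or in the interaction.

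Markers of hepatocytes and of other liver cells moved with the final fast beside the members. Of 9 hepatocyte markers, 2 rose and 1 fell after 2 earlier fasts, and 2 rose and 2 fell after 0. Of 7 Kupffer cell markers, 2 fell after 2 earlier fasts and 5 fell after 0. Their mean log2 signal ran from 4.76 to 5.85 in fasted livers and from 4.91 to 6.00 in fed livers after 2 earlier fasts, and from 4.73 to 5.98 in fasted livers and from 5.22 to 6.37 in fed livers after 0. Marco, of the Kupffer list, went the other way without passing, at 0.36 after 2 earlier fasts and 0.39 after 0. Of 6 stellate and fibroblast markers, 3 fell under each history, and of 6 sinusoidal endothelial markers 1 rose under each. The endothelial marker that rose was Lyve1, by 1.06 after 2 earlier fasts and by 0.93 after 0. The rest of that list had changes below 0 under both histories, none of which passed, with Clec4g lowest at -0.28 and -0.22. Among all genes, 5.52% fell and 6.06% rose after 2 earlier fasts, and 6.23% fell and 6.25% rose after 0. The stellate mean ran from 5.63 to 6.06 in fasted livers and from 5.96 to 6.26 in fed livers after 2 earlier fasts, and from 5.48 to 6.03 in fasted livers and from 5.88 to 6.16 in fed livers after 0. The part of these cells in the changes of the clock genes was not tested.

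From animal to animal within a group, several members varied more than most genes of like signal. The pooled SD within groups was 0.90 for Dbp, above 99.9% of the genes within 0.5 log2 of its mean, whose median SD was 0.17. It was 0.72 for Per1 (99.6%), 0.55 for Bhlhe40 (98.9%), 0.48 for Arntl (98.1%), 0.44 for Bhlhe41 (97.5%) and 0.38 for Nr1d1 (97.0%). Nr1d2 (0.28, 91.7%) and Cry1 (0.38, 90.8%) stood out less. Clock, whose transcript is known to be nearly flat over the day in liver, had an SD of 0.13, above 42.5% of its like.

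**Figure D3:**
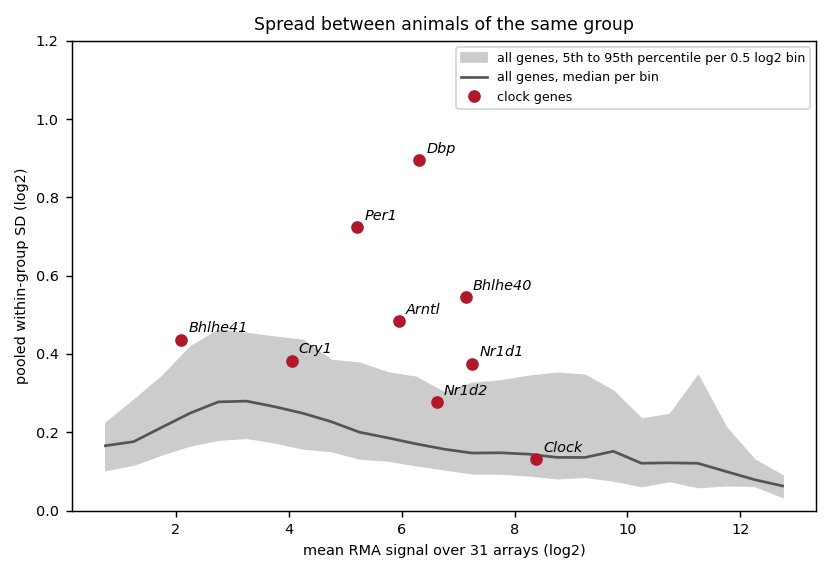
Pooled within-group SD (log2) against mean log2 signal over 31 arrays for the 9 measured members, with the median and the 5th to 95th percentile of all genes in bins of mean signal. Dbp lies highest at 0.90, and Clock lies on the median line at 0.13.

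The members also varied together. With each array expressed as its deviation from its group mean, 36 pairs of the 9 members were tested over 31 arrays, and 18 were called after Benjamini-Hochberg adjustment of a 2-sided permutation p (1e+05 resamples within groups), 8 positive and 10 negative. All 18 were called by Spearman's rho too, and 14 had the same sign in each of the 4 groups. All 18 kept their sign without the 2 arrays farthest from the median of the gene named first in each pair. The smallest r left was 0.38, for Per1 and Bhlhe41. Bhlhe41 was never named first, so in no pair were arrays left out by its own signal. The arrays share the normalization, and a pair's genes share the RNA of the same liver. The hour within the morning is not given for any liver, and its part in this shared variation was not tested. The share of pairs called among other genes was not measured, so 18 of 36 is not shown to be particular to the clock genes.

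Arntl and Dbp formed the tightest pair, with r = -0.87 and rho = -0.92 (adjusted permutation p = 0.00024 for r and 0.00018 for rho, both from 1e-05, the smallest p these resamples can give), r = -0.86 without the 2 farthest arrays, and -0.94 to -0.75 within the 4 groups. Livers of 1 group with more Arntl had less Dbp. Dbp ran with Nr1d1 (r = 0.75), Nr1d2 (r = 0.66) and Bhlhe41 (r = 0.64). It ran against Clock (r = -0.72, but -0.09 among fasted livers after 2 earlier fasts). Clock also ran against Nr1d1 (r = -0.55) and Nr1d2 (r = -0.47). Among fasted livers after 2 earlier fasts, the r of Clock with Nr1d1 and Nr1d2 was 0.14 and 0.22. Arntl ran with Clock (r = 0.70), although r was -0.11 among the 7 fasted livers after 2 earlier fasts, where Clock spanned only 0.23. It ran against Bhlhe41 (r = -0.74), Nr1d2 (r = -0.64) and Nr1d1 (r = -0.55). It also ran against Bhlhe40 (r = -0.49, but 0.09 among fasted livers after 0 earlier fasts). Bhlhe41 was dim, with signals near the array medians, which limits what its r with any member can say.

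Among the 9 members, Cry1 and Per1 had the fewest called pairs. Per1 was called in 2 of its 8 pairs, with Bhlhe40 (r = 0.57) and Bhlhe41 (r = 0.50), and Cry1 in 1 of its 8, with Nr1d1 (r = -0.49). By comparison, Arntl was called in 6 of 8 pairs and Clock, Nr1d1, Dbp and Bhlhe41 in 5 each. The r of Per1 with Bhlhe40 was 0.08 in fasted and 0.45 in fed livers after 2 earlier fasts, and 0.91 in fasted and 0.81 in fed livers after 0, while the final fast after 2 earlier fasts moved the pair in opposite directions. The number of pairs called was 6 in the 2 groups with 2 earlier fasts and 14 in the 2 groups with 0, and 6 in fasted livers and 13 in fed livers. These splits were chosen after the data had been seen, and the difference between the counts was not tested.

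**Figure D4:**
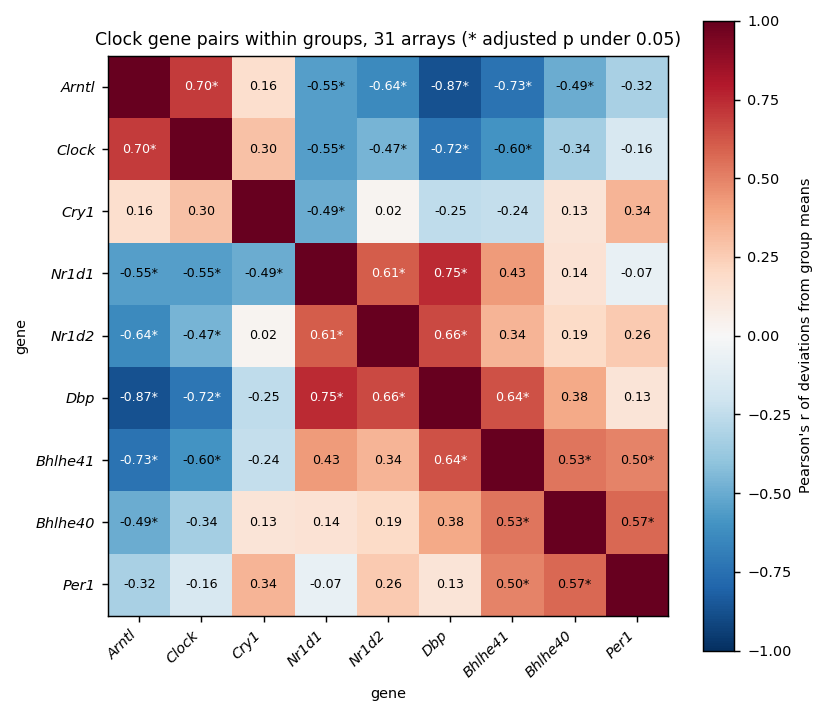
Pearson's r of the deviations from group means for each pair of the 9 measured members over 31 arrays, with an asterisk on pairs called at an adjusted permutation p under 0.05 over 36 pairs. Arntl and Clock run together and against Dbp, Nr1d1, Nr1d2 and Bhlhe41, and 18 pairs carry an asterisk.

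**Figure D5:**
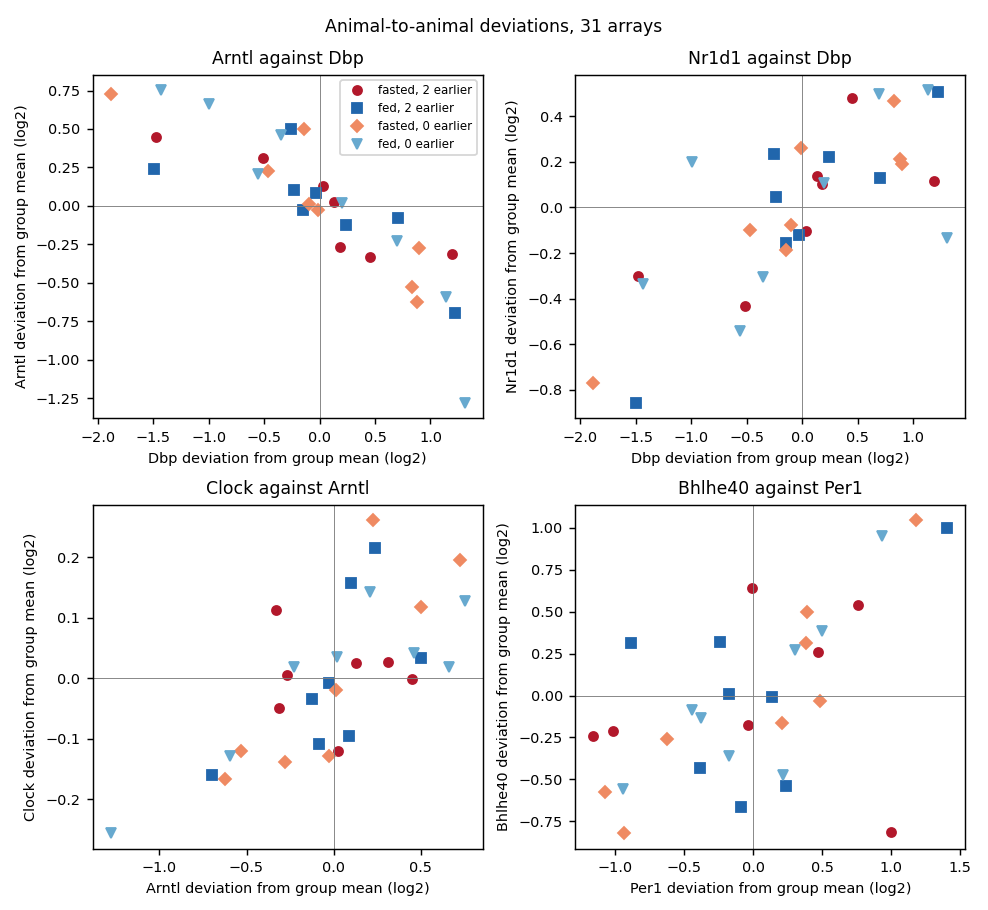
Deviation of each liver from its group mean (log2) for Arntl against Dbp, Nr1d1 against Dbp, Clock against Arntl and Bhlhe40 against Per1, 1 point per array, coloured by group. Arntl falls along the Dbp axis in all 4 groups (r = -0.87), and Bhlhe40 increases with Per1 (r = 0.57).

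Over 7645 genes with a mean signal of at least 4, the deviations most like those of Dbp were of Per3 (r = 0.90), the PAR bZIP factor Tef (r = 0.80), Narf (r = 0.78), the cytochrome P450 gene Cyp2c54 (r = 0.73) and the ubiquitin protease gene Usp2 (r = 0.72). Those most opposite were of the choline kinase gene Chka (r = -0.83), the tubulin gene Tubb2a (r = -0.80), Clpx, a subunit of a mitochondrial protease (r = -0.79), Tars, a threonyl-tRNA synthetase (r = -0.74), and Nfil3, a repressor that binds the D-box (r = -0.74). For Arntl, Clpx (r = 0.82), Slc45a3 (r = 0.78), Rnf125 (r = 0.75), Rfxank (r = 0.74) and Chka (r = 0.74) were most alike. Per3 (r = -0.87), Tef (r = -0.75), Dclre1a (r = -0.75), Narf (r = -0.74) and Usp2 (r = -0.71) were most opposite. The members themselves, predicted or numbered gene models and olfactory receptor genes were left out of these rankings. Arntl, at r = -0.87 with Dbp, is therefore not listed. These r values are a description over 31 arrays that share their normalization, and the genes were taken for their r. Of the 5 genes most like Dbp, Narf and Cyp2c54 were called in the response to the final fast after 2 earlier fasts, at -0.34 and -0.59, and not after 0, at -0.29 and -0.32. Per3, Tef and Usp2 were called in neither response, with changes of -0.63, -0.25 and 0.64 after 2 earlier fasts and of -0.39, -0.11 and 0.86 after 0. Averaged over both histories, Usp2 rose by 0.75 (adjusted p = 0.0130), while Per3 (-0.51) and Tef (-0.18) did not pass.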

How the data were processed

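The authors deposited log2 values made with RMA, per the submitters' processing notes. RMA subtracts background, equalizes the quantiles of the arrays and combines the probes of a set. Its version and any detection calls are not given in the sources used here. The deposited log2 values ran from -0.0139 to 13.1. Because quantiles were equalized, a shift shared by all genes of an array would not be seen.

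Of 41345 probe sets, 23521 carry 1 gene symbol in the platform's annotation, 1814 several and 16010 none. Those with 1 symbol entered, and a gene with several was represented by its brightest one (mean of 31 arrays), giving 22180 genes. Each measured member has 1 such probe set. Of these genes, 21994 were matched by Entrez identifier to RefSeq genes (GRCm38.p6), all with the same symbol. List genes without a probe set of their own are not reported here.

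A single limma model (version 3.58.1, R 4.3.3) held the 4 group means, with Benjamini-Hochberg adjustment over all genes and calls under 0.05, 2-sided. Correlations and figures used Python 3.11.15 with scipy 1.17.1 and matplotlib 3.10.9. The fit was tested on simulated data. Alternatives were an intensity trend, the mean of a gene's probe sets, a minimum mean signal of 3, array weights, cyclic loess, only the groups compared, a replicate block and leaving out each array.

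Named genes were the members and the called list genes with the 6 largest changes per response (of the glucocorticoid list 4 of them are given). The 5 genes most and least like Arntl and Dbp, outside the members and the gene models left out, were also named. Per3 is also named from the clock factors, after its values were seen. The members and lists were chosen with earlier results of these data known.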

Additional observations from a re-analysis of the deposited data

Results flagged for a closer look

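In 36 sets of arrays, 9 members in each of 4 groups, the highest or lowest array was compared with its nearest neighbour by Dixon's 95% criterion, which chance alone exceeds in about 1 in 20 sets. It was exceeded in 3 of the 36. Nr1d2 was 7.22 in replicate 4 of the fed group after 0 earlier fasts, where the nearest array was at 6.81 and the lowest at 6.46. Bhlhe41 was 3.75 in replicate 8 of the fed group after 2 earlier fasts, where the nearest array was at 2.70. Bhlhe41 was 2.66 in replicate 8 of the fasted group after 0 earlier fasts, where the nearest array was at 2.03.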

How the results depend on the processing

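In the response to the final fast after 2 earlier fasts, Per1, Bhlhe40, Clock and Nr1d1 were called under all 38 alternatives. The number of members called there ran from 4 to 7 when single arrays were left out, and was 5 with a minimum mean signal of 3, which removed Bhlhe41. Bhlhe41 also missed the threshold with only the groups compared (adjusted p = 0.0565). After 0 earlier fasts the count was 2 instead of 1 with a minimum mean signal of 3, and ran from 1 to 2 when single arrays were left out. The gene gained was Bhlhe40 (adjusted p = 0.0403 with the minimum). The comparisons by history and the interaction called 0 members under every alternative run, and the average over histories called 5 to 6 when single arrays were left out. The correlation count of 18 was 6 with only the 2 groups of 2 earlier fasts, 6 with only fasted livers, 14 with only the 2 groups of 0 earlier fasts and 13 with only fed livers, each from fewer arrays and chosen after seeing the data. No called change turned its sign; uncalled ones of Arntl, Bhlhe41 and Dbp after 0 earlier fasts crossed 0 (Dbp -0.43 to 0.04). Signals near the array medians limit what can be said of Bhlhe41.

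Over all genes, deviations of arrays with the same replicate number correlated at -0.06 to 0.12, which gives no sign of pairing over the whole array. An r over all genes cannot show whether the members alone were paired, and this was not tested. Replicate 8 was low for Arntl (-0.70 to -0.60) and high for Dbp (0.88 to 1.22) in each group that held it. Replicate 1 was of mixed sign for Arntl (-0.33 to 0.75). With a replicate block the counts were 2 after 0 earlier fasts (Bhlhe40 added, adjusted p = 0.0427), 6 after 2, 0 in each comparison by history and the interaction, and 5 averaged over histories.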

Other observations

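Some livers stood at 1 end for several members at once, given here as deviations from the group mean in log2 units. Replicate 8 of the fed group after 2 earlier fasts was high for Per1 (1.41), Bhlhe41 (1.31), Dbp (1.22) and Bhlhe40 (1.00), and low for Arntl (-0.70). Replicate 7 of the fed group after 0 earlier fasts was high for Dbp (1.31), Bhlhe40 (0.95), Per1 (0.93) and Bhlhe41 (0.91), and low for Arntl (-1.28). Replicate 5 of the fasted group after 0 earlier fasts was low for Dbp (-1.89) and Nr1d1 (-0.77) and high for Per1 (1.18), Bhlhe40 (1.04) and Arntl (0.73).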
